A study of Mus musculus with 6 samples.

Results

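The miR-181 family of microRNAs (miRNAs) comprised 10 mature sequences of the 1963 distinct mouse sequences in the table, chosen by name as every mouse entry of miR-181a, miR-181b, miR-181c or miR-181d, on either arm and from any copy. Of these, 4 are 5p arms and 6 are 3p arms, from 6 hairpin genes in 3 clusters. The table gave reads for 1 small RNA library of mouse liver, Cre-miR122 replicate 2. The mouse had received an adeno-associated virus of serotype 9 (AAV9) that carried Cre recombinase under the promoter of the cardiac troponin T gene Tnnt2, a promoter used for expression in heart muscle, with an added element named miR122, whose nature the labels do not state. All 6 libraries that the labels name share the AAV9 vector, the Tnnt2 promoter and Cre. The 3 Cre-miR122 livers (replicates 1, 2 and 4) also received the miR122 element, and the 3 Cre livers (replicates 10, 11 and 12) did not. Strain, age, sex, dose and time after injection are not given in the labels used here. The other 5 libraries were not analysed here, so no effect of the vector on miR-181 was tested, and every value below describes 1 library without a replicate.

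A miRNA hairpin is cut by Drosha and Dicer into a duplex of 5p and 3p strands, one of which is usually kept in an Argonaute protein while the other is degraded. Bases 2 to 8 of the kept strand, the seed, largely decide which mRNAs are recognised. miR-181 is known from the blood and immune system, where miR-181a is high in thymocytes and tunes T cell receptor signalling, and miR-181b is known in endothelium as a brake on NF-kB signalling. Liver is a mixture of hepatocytes, endothelium, Kupffer cells, lymphocytes and stellate cells, and reads of a whole liver do not say which of these cells a miRNA came from. In such a bulk sample, few cells of a type and little RNA per cell cannot be told apart.

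The mature sequences are shown here because the family is defined by them, with the seed in capitals, from RefSeq (GRCm38.p6), in which all 10 matched by name and sequence. The 4 members' 5p arms carry 1 common seed.
miR-181a-5p: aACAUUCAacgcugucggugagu
miR-181b-5p: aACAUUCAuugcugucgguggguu
miR-181c-5p: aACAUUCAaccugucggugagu
miR-181d-5p: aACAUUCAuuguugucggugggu
The 3p arms carry 4 different seeds. miR-181a-1-3p and miR-181c-3p share one, both miR-181b 3p arms share another, and miR-181a-2-3p and miR-181d-3p each have their own.
miR-181a-1-3p: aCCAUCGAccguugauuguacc
miR-181a-2-3p: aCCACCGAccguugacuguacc
miR-181c-3p: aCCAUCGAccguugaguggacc
miR-181b-1-3p: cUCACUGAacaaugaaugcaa
miR-181b-2-3p: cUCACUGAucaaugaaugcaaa
miR-181d-3p: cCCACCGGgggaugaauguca

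The 5p arms differ only outside the seed. Counted from 1 at the 5′ end and in the T alphabet of the table, miR-181b-5p and miR-181d-5p differ over their 23 common positions by C12T alone. miR-181a-5p and miR-181b-5p differ by A9T, C10T and A21G. miR-181c-5p is miR-181a-5p with the base at position 11 missing, so it is 22 nt long in place of 23. Within the common positions, 1 base thus tells miR-181b-5p from miR-181d-5p, and 1 missing base tells miR-181c-5p from miR-181a-5p. The exactness of counting therefore matters for the values below.

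The genes form 3 pairs. On GRCm38 (mm10), Mir181a-1 (ENSMUSG00000065565.1, chromosome 1, plus strand, 137966455 to 137966541) and Mir181b-1 (ENSMUSG00000065458.1, 137966639 to 137966718) are 97 bases apart. Both lie in an intron of the noncoding gene Gm4258, and Mir181b-1 lies in an exon of the lincRNA gene A430106G13Rik, which overlaps the last 11 bases of Mir181a-1. Mir181a-2 (ENSMUSG00000065423.1, chromosome 2, plus strand, 38852735 to 38852810) and Mir181b-2 (ENSMUSG00000065578.1, 38853830 to 38853918) are 1019 bases apart, in an intron of Nr6a1 on the opposite strand. Nr6a1 encodes an orphan nuclear receptor. Mir181c (ENSMUSG00000065483.2, chromosome 8, minus strand, 84178873 to 84178961) and Mir181d (ENSMUSG00000076338.1, 84178716 to 84178787) are 85 bases apart, in an intron of the germ cell gene Nanos3 on the same strand. The hairpins of the first 2 clusters are given here, with both mature arms in capitals, because the copies of miR-181a and of miR-181b give the same 5p sequence and are told apart by their 3p arms and by the bases that follow the 5p arm.
Mir181a-1: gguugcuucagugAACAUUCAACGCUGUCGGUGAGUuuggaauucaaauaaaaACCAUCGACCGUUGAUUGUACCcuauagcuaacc
Mir181a-2: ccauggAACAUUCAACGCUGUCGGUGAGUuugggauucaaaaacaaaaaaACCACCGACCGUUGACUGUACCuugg
Mir181b-1: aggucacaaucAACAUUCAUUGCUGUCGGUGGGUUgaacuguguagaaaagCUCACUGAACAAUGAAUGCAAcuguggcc
Mir181b-2: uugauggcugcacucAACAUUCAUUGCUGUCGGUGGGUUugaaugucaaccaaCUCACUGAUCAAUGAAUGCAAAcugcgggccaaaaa

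The library held 6661069 reads over mouse sequences, and values are given as reads and as reads per 1000000 of these (RPM). Ranges in parentheses are exact 95% intervals. They cover the counting error of reads only, with PCR copies counted as reads, and say nothing of differences between animals. Checked against liver markers, the library held miR-122-5p at 3.54% and miR-148a-3p at 57.9% of mouse reads, both abundant in hepatocytes. The library further held miR-192-5p at 1.08% and miR-194-5p at 0.0603%, which were also listed as hepatocyte miRNAs. It also held miR-1a-3p at 14.7% and miR-206-3p at 1.03%, both miRNAs of striated muscle, and miR-133a-3p at 915 reads. Whether RNA of muscle contributed to the miR-181 reads was not tested.

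By its mouse entries the family held 1739 reads, 0.0261% of mouse reads (0.0249 to 0.0274). A read was present for 8 of the 10 members and at least 10 reads for 6 of them, against 27.8% and 15.4% of all mouse sequences. The 5p arms held 1553 reads, 89.3% of the family (87.8 to 90.7). As a seed family over mouse sequences they ranked 44 of the 450 seeds with a read. No mouse sequence outside the family has this seed, and among sequences of the table not named miR-181 1 has it, with 0 reads.

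Among the 5p arms, miR-181a led. The entry mmu-miR-181a-5p held 1131 reads, 170 RPM (160 to 180), at rank 71 of the mouse sequences. Next came mmu-miR-181d-5p with 358 reads, 53.7 RPM (48.3 to 59.6), at rank 104. The entries mmu-miR-181b-5p with 33 reads, 4.95 RPM (3.41 to 6.96), and mmu-miR-181c-5p with 31 reads, 4.65 RPM (3.16 to 6.61), were lowest. The order by mouse entries was therefore a, d, then b and c, and the last pair did not differ beyond counting error, with a ratio of 1.06 (0.632 to 1.80).

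The 3p arms held 186 reads together. The entry mmu-miR-181a-1-3p held 108 reads, 16.2 RPM (13.3 to 19.6), and mmu-miR-181a-2-3p held 69 reads, 10.4 RPM (8.06 to 13.1). The entry mmu-miR-181c-3p held 8 reads, 1.20 RPM (0.519 to 2.37). The 3p arm of Mir181b-1 held 1 read, and those of Mir181b-2 and Mir181d held 0, which allows a share of up to 4.5e-05% of mouse reads for each by a floor of 3 reads, and up to 5.54e-05% by the exact interval. Both 3p arms of miR-181a thus had more reads than the 5p entries of miR-181b and miR-181c. For miR-181b this holds for its 24-nt mouse entry and not for the arm, since its 5p forms together had 618 reads against 117 and 69 of the miR-181a 3p arms.

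**Figure D1:**
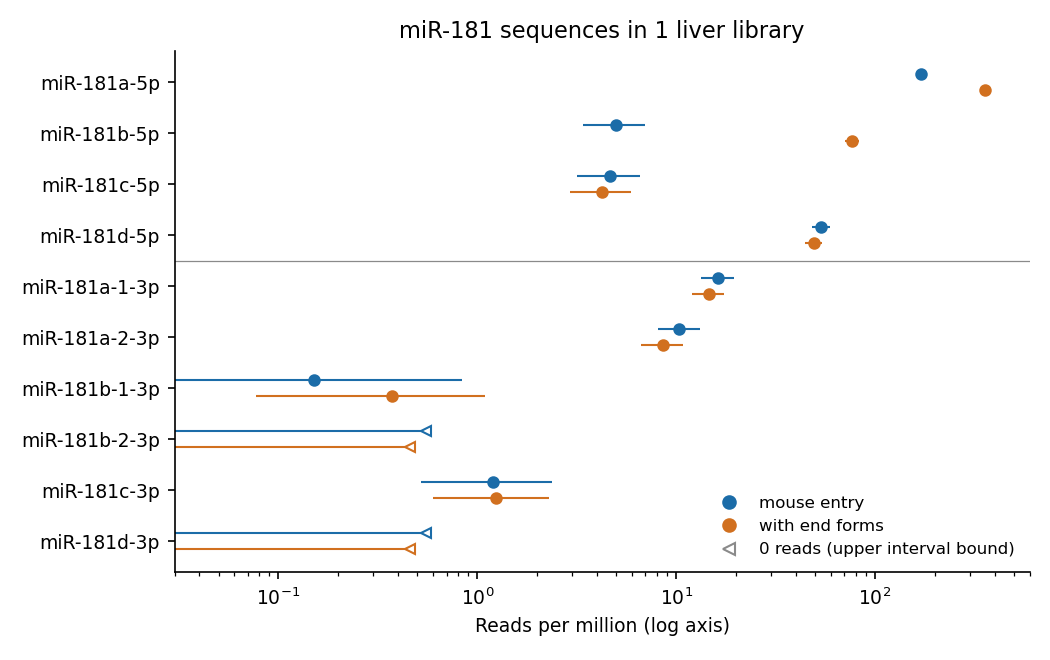
Reads per 1000000 (RPM) on a log axis for the 10 miR-181 sequences in the 1 library, by the mouse entry (blue, of mouse reads) and with end forms (orange, of mouse reads and end variants). Bars are exact 95% intervals of counting error, and open triangles mark the exact upper limit where 0 reads were counted. miR-181b-5p moved from 4.95 to 76.9 RPM when end forms were counted, miR-181c-5p from 4.65 to 4.23 and miR-181d-5p from 53.7 to 49.2.

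The table also lists miR-181 under 302 entries of 60 species codes, which reduce to 99 distinct sequences. Of these, 10 were the mouse entries, 33 lay exactly in a mouse miR-181 hairpin with another start or end, here called end forms, and 56 held other bases. Reads were counted for 17 of the 33 end forms, 2371 reads in all, and for 0 of the 56 sequences with other bases. Among the latter were 29 that differ from a mouse miR-181 hairpin by 1 substitution. In 16 pairs of such a sequence with the exact form of equal length that had reads, the substituted sequence had 0 reads. None of these pairs was on miR-181a-5p, miR-181c-5p or miR-181d-5p, so exactness was not checked in this way for those arms. Some pairs rested on exact forms with 8 reads or 1 read, too few for a useful limit. The tightest limits came from the 23-nt miR-181b-5p form, with 232 reads, where 0 reads allow at most 1.29% for each substituted entry by the floor of 3 reads. Of 41 nested pairs in the family, in which a listed sequence is the start of a longer one, the longer had more reads in 16, so a read was not counted for every entry it contains.

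With end forms the family held 4110 reads, 0.0512% (0.0496 to 0.0528) of the 8032202 reads of mouse sequences and their end variants, and its mouse entries held 42.3% (40.8 to 43.8) of these. The seed then ranked 39. The gain fell unequally on the 4 arms. miR-181a-5p went from 1131 to 2864 reads, and miR-181b-5p from 33 to 618, 18.7 times as many. miR-181d-5p went from 358 to 395, and miR-181c-5p from 31 to 34. The order of the arms became a, b, d, c.

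The forms of miR-181b-5p are printed here because its mouse entry is one of its rarer forms. Capitals mark the bases after the last stretch common to all 4 arms, in the T alphabet of the table. The bases in lower case are not all common to the 4 arms, which differ at the positions given above.
20 nt, 78 reads: aacattcattgctgtcggtg
21 nt, 174 reads: aacattcattgctgtcggtgG
22 nt, 94 reads: aacattcattgctgtcggtgGG
23 nt, 232 reads: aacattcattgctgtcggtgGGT
24 nt, the mouse entry, 33 reads: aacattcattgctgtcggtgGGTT
25 nt, 7 reads: aacattcattgctgtcggtgGGTTT
The mouse entry held 5.34% (3.70 to 7.42) of the reads of this arm. Over the 206 mouse sequences with at least 100 reads including end forms, the median was 70.1%, and 13 had a lower value than miR-181b-5p. The mouse entries of miR-181a, miR-181c and miR-181d end 1 nt earlier than that of miR-181b, at the base called the common end here.

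For miR-181a-5p the mouse entry, which stops at the common end, held 39.5% of the arm (37.7 to 41.3). Its 21-nt form, 2 nt shorter, was nearly as frequent with 1002 reads, and the 22-nt form had 536. The 19-nt form had 155 reads, the 24-nt form 19 and the 25-nt form 21. The 3 main forms are printed to show that they differ at the 3′ end only.
23 nt, the mouse entry, 1131 reads: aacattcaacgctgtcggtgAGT
21 nt, 1002 reads: aacattcaacgctgtcggtgA
22 nt, 536 reads: aacattcaacgctgtcggtgAG
For miR-181d-5p the table lists 2 forms, the 23-nt mouse entry with 358 reads and a 24-nt form with 37. For miR-181c-5p it lists 4, the 22-nt mouse entry with 31 reads, a 21-nt form with 2, a 23-nt form with 0 and a 24-nt form with 1. No miR-181 entry of the table ends 2 to 4 nt before the common end on miR-181c-5p or miR-181d-5p, so reads of that kind, frequent on miR-181a-5p and miR-181b-5p, could not be seen for them.

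**Figure D2:**
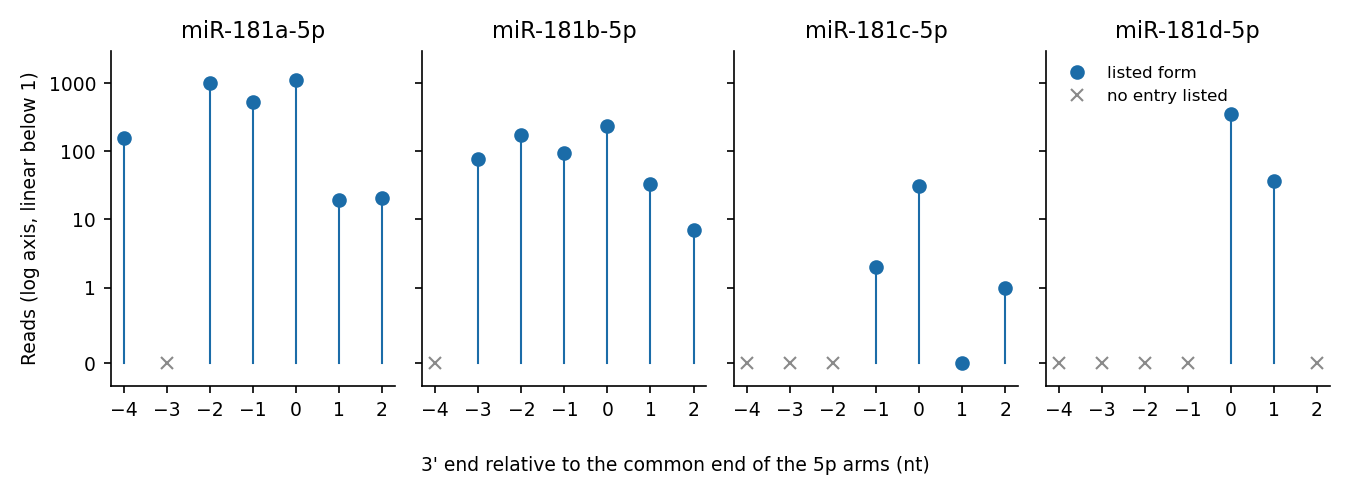
Reads (log axis, linear below 1) of each listed form of the 4 miR-181 5p arms by its 3′ end in nt, relative to the common end at 0. Crosses mark ends for which the table lists no form. miR-181a-5p and miR-181b-5p have listed forms on 6 ends each, miR-181c-5p on 4 and miR-181d-5p on 2.

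The order of miR-181b and miR-181d depended on which forms were counted. miR-181d-5p had 10.8 reads per read of miR-181b-5p by mouse entries (7.59 to 16.0), and 0.639 (0.562 to 0.726) with end forms. Neither comparison is even, because the first sets a form ending at the common end against one ending 1 nt later, and the second adds 5 end forms with reads to miR-181b-5p and 1 to miR-181d-5p. Over the 2 ends listed for both, miR-181d-5p had 395 reads and miR-181b-5p 265, a ratio of 1.49 (1.27 to 1.75). At the common end alone the values were 358 and 232, a ratio of 1.54 (1.30 to 1.83), and 1 nt later they were 37 and 33, a ratio of 1.12 (0.682 to 1.85). Compared like with like, miR-181d-5p was thus ahead of miR-181b-5p at the common end, and at the next base the 2 did not differ beyond counting error.

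miR-181a-5p had the most reads by mouse entries, with end forms and over shared ends, by margins that differed. Against miR-181b-5p it was 34.3 to 1 by mouse entries (24.3 to 50.0), 4.63 (4.25 to 5.06) with end forms, and 5.02 (4.57 to 5.51) over the 5 ends listed for both. Against miR-181d-5p it was 3.16 (2.80 to 3.57) by mouse entries, 7.25 (6.52 to 8.08) with end forms and 2.91 (2.60 to 3.27) over the 2 shared ends. Against miR-181c-5p it was 36.5 (25.6 to 53.9), 84.2 (60.1 to 122) and 50.2 (35.8 to 72.7) in the same order. miR-181c-5p was below miR-181d-5p, its cluster partner, by a ratio of 11.5 (7.99 to 17.3) by mouse entries and 12.7 (8.83 to 19.0) over shared ends. It was also below miR-181b-5p over shared ends, by 10.8 (7.57 to 15.8), which the mouse entries alone do not show. The exception to the lead of miR-181a-5p was the form ending 1 nt after the common end, with 19 reads of miR-181a-5p and 37 of miR-181d-5p, a ratio of 0.514 (0.279 to 0.916). At that end miR-181b-5p had 33 reads, and the ratio of miR-181a-5p to it was 0.576 (0.309 to 1.04), not beyond counting error.

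**Figure D3:**
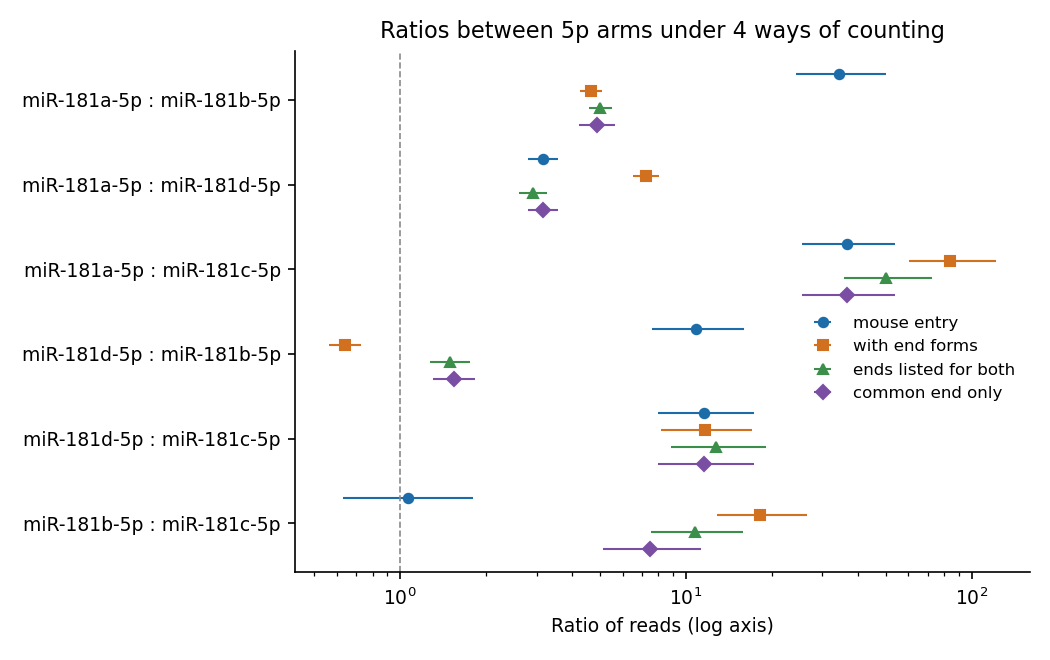
Ratios of reads between 5p arms of miR-181 on a log axis, counted by mouse entry, with end forms, over ends listed for both arms and at the common end only, with exact 95% intervals of counting error as bars. The ratio of miR-181d-5p to miR-181b-5p lies on both sides of 1 (dashed line), at 10.8, 0.639, 1.49 and 1.54.

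The 3′ ends themselves differed between members. Over the 5 ends listed for both, forms shorter than the common end made up 56.8% (54.9 to 58.7) of miR-181a-5p reads and 49.6% (45.3 to 53.9) of miR-181b-5p reads. Forms longer than the common end made up 1.48% (1.06 to 2.01) of miR-181a-5p and 7.41% (5.34 to 9.95) of miR-181b-5p. Between the common end and the next base, which the table lists for all 4 arms, the longer form held 1.65% of miR-181a-5p (0.998 to 2.57), 12.5% of miR-181b-5p (8.73 to 17.0) and 9.37% of miR-181d-5p (6.68 to 12.7). For miR-181c-5p it held 0 of 31 reads, which allows a share of up to 9.68% by a floor of 3 reads and up to 11.2% by the exact interval. The 1-nt extension was thus more frequent on miR-181b-5p and miR-181d-5p than on miR-181a-5p, beyond counting error in this library, and its share on miR-181c-5p was not resolved at this depth.

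The 5′ start, which sets the seed, varied little among listed forms. Of the 33 end forms, 14 start at another base than the mouse entry, and 1 of these had reads, 2 in number. It was a form of miR-181c-3p that starts 1 nt earlier and ends 1 nt earlier, so that bases 2 to 8 differ, while the mouse entry of that arm had 8 reads. On the 5p arms 1 form with another start is listed, for miR-181b-5p, with 0 reads. All 17 of the 5p forms with reads, 3911 reads in all, therefore carry the common seed, as far as the listed forms can show.

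The clusters could be told apart only in part. The 5p sequences of miR-181a and of miR-181b each come from 2 hairpins, and their mouse entries do not separate them. Of the 186 reads on 3p arms, 109 or 58.6% (51.2 to 65.8) came from the chromosome 1 cluster. The chromosome 2 cluster gave 69 or 37.1% (30.1 to 44.5), and the chromosome 8 cluster 8 or 4.30% (1.88 to 8.30). These 3p shares do not give the part of each cluster in the family. The 5p arms of the chromosome 8 cluster each match 1 hairpin, and held a larger part of the 5p reads. By mouse entries, miR-181d-5p held 358 and miR-181c-5p 31 of the 1553 reads on 5p arms. With end forms they held 395 and 34 of 3911. Between the copies of miR-181a, the 3p arm of Mir181a-1 had 1.57 reads per read of that of Mir181a-2 (1.15 to 2.15), both counted as 22-nt forms with the same start. With end forms the ratio was 1.70 (1.25 to 2.32), but the table lists 5 forms for the former and 1 for the latter. The 3p arms of Mir181a-1 and Mir181a-2 differ by T5C and T16C, of which the former lies in the seed. How the 2864 reads of miR-181a-5p divide between the copies does not follow from this, since 3p strands may be kept at different rates.
For miR-181b the 3p arms gave 3 reads of Mir181b-1, 2 of them in a 19-nt form, and 0 of Mir181b-2. The 25-nt form of miR-181b-5p, with 7 reads, ends in a base that follows the arm in Mir181b-2 and not in Mir181b-1. It is the only miR-181b-5p form with reads that matches 1 hairpin, and whether its last base was copied from the hairpin or added later was not tested.

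The 2 arms of a hairpin were unequal to different degrees. miR-181a-5p had 6.39 reads per read of its 3p arms together (5.45 to 7.53), and 15.4 with end forms (13.3 to 18.0). For miR-181c the ratio of 5p to 3p was 3.88 (1.74 to 9.76), from 31 and 8 reads, and 3.40 (1.64 to 7.72) with end forms. miR-181d-5p had 358 reads against 0 of miR-181d-3p, a ratio of at least 119 by a floor of 3 reads and at least 96.55 by the exact interval. With end forms it had 395 reads against 0, a ratio of at least 131.7 by the floor and at least 106.6 by the interval. For miR-181b the ratio was 33 by mouse entries (5.53 to 1342), from 33 reads and 1 read, and 206 with end forms (70.2 to 1002), from 618 and 3 reads. With end forms, the 3p arms of miR-181a and miR-181c thus held a larger part of the reads of their hairpins than the 3p arms of miR-181b and miR-181d, beyond counting error. This comparison is not even, because 6 forms are listed for miR-181a-5p and 7 for miR-181b-5p, against 4 for miR-181c-5p and 2 for miR-181d-5p. By mouse entries the interval of miR-181b overlapped those of miR-181a and miR-181c, so that only miR-181d stood apart from these. The 3p arms of Mir181a-1 and Mir181c are identical at 20 of 22 positions, those of Mir181a-1 and Mir181a-2 also at 20, and those of Mir181a-2 and Mir181c at 19. Whether this likeness bears on the arm ratios was not tested.

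Set beside miRNAs of leukocytes, miR-181a-5p was neither highest nor lowest. Of 8 listed miRNAs, 2 had more reads than miR-181a-5p and 6 had fewer, by mouse entries and with end forms alike. Those above were miR-21a-5p with 9945 reads, or 78762 with end forms, a miRNA found in many cell types, and miR-146a-5p with 4090, or 5906, which is induced by NF-kB. miR-146b-5p had 337 reads, or 2425 with end forms, against 2864 of miR-181a-5p. The miRNAs most restricted to blood cells were lower. miR-142a-5p had 25 reads, or 369 with end forms, and miR-142a-3p 25, or 146. miR-150-5p of mature lymphocytes had 135, or 171, miR-223-3p of myeloid cells 42, or 63, and miR-155-5p of activated leukocytes 37, or 53. With end forms, miR-181a-5p had 1.18 times the reads of miR-146b-5p, 7.76 times those of miR-142a-5p and 16.8 times those of miR-150-5p. It had 19.6 times the reads of miR-142a-3p, 45.5 times those of miR-223-3p and 54.0 times those of miR-155-5p. Other cells of liver have markers in the table too. miR-126a-3p of endothelium had 59356, or 134932 with end forms, and its partner strand miR-126a-5p 1152, or 1360. miR-143-3p of mesenchymal cells had 135826, or 162854. Markers of leukocytes, endothelium and mesenchymal cells were thus all present, beside those of hepatocytes and striated muscle given above. Which of all these cells contributed the miR-181 reads was not tested. Ligation and PCR favour some sequences, so ratios between different miRNAs are ratios of reads and not of molecules.

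By mouse entries the sequences nearest in level were miR-101a-3p with 1167 reads and miR-126a-5p with 1152 above miR-181a-5p, and miR-128-3p with 1008 and miR-133a-3p with 915 below it. The 2 above did not differ from it beyond counting error, with ratios of 1.03 (0.950 to 1.12) and 1.02 (0.938 to 1.11), whereas the 2 below did, with 0.891 (0.818 to 0.971) and 0.809 (0.741 to 0.884). With end forms these 4 had 7390, 1360, 3610 and 11609 reads against 2864, so the likeness in level depended on the way of counting.

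**Figure D4:**
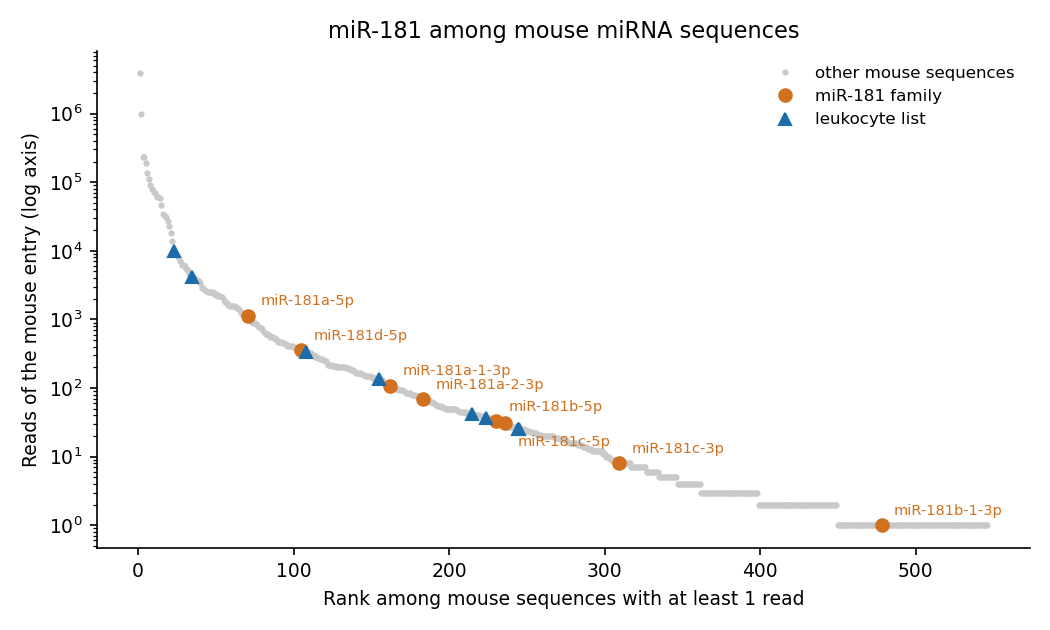
Reads of the mouse entry (log axis) against rank for the 546 mouse sequences with at least 1 read, with the 8 detected miR-181 sequences (orange) and 8 leukocyte miRNAs (blue) marked. miR-181a-5p at 1131 reads lies below miR-21a-5p and miR-146a-5p and above the other 6 leukocyte miRNAs, and miR-142a-3p and miR-142a-5p lie side by side at 25 reads.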

How the data were processed

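Total RNA of liver was made into adapter-ligated small RNA libraries, amplified by PCR, size-selected and sequenced as single reads, per the labels' protocols. The deposited table gives raw counts for 1 cleaned library, per the file headers, and 0 library columns lacked a sample. The counting program is not given in the sources used here, and mm10 is named by the submitters' processing notes. Each of the 30721 distinct sequences was counted once (8163802 reads). Entries of identical sequence had equal counts, with 0 exceptions. End forms are miR-181-named entries found exactly in a GENCODE M21 hairpin (GRCm38) that overlap an arm by at least 15 nt. Other end variants were assigned likewise, by sequence. RefSeq (GRCm38.p6) gave printed sequences with U. Intervals of shares are Clopper-Pearson at 95%, and those of ratios are exact binomial given the summed counts. Neither is adjusted for the number of ratios. Counts of 0 use a floor of 3 reads. No test between groups could be run with 1 library. The named miRNAs are all members, the 3 main forms of each arm, the 2 nearest sequences in rank on each side of miR-181a-5p, and fixed lists of leukocyte and tissue miRNAs. Members and lists were chosen with earlier results of these data known. Simulated libraries and shifted ends served to test both steps. The software was SciPy 1.17.1 and NumPy 2.4.6 with pandas 2.3.3 under Python 3.11.15, and matplotlib 3.10.9 for plots.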

Additional observations from a re-analysis of the deposited data

How the results depend on the processing

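The family share was 0.0261% of mouse reads, 0.0213% with the total over all sequences, 0.0620% without miR-148a-3p, 0.0512% with end forms or with every same-named entry, and 0.0515% with end forms of the same start. Sequences with other bases had 0 reads, so counting every same-named entry gave the values with end forms. The ratio of miR-181a-5p to miR-181b-5p moved from 34.3 to 4.63 with end forms, of any or of the same start, to 4.88 at the common end and to 5.02 over ends listed for both. That of miR-181a-5p to miR-181d-5p moved from 3.16 to 7.25 with end forms, and that of miR-181a-5p to its 3p arms from 6.39 to 15.4. The ratio of miR-181d-5p to miR-181b-5p reversed from 10.8 to 0.639 with end forms, of any or of the same start, and was 1.54 at the common end and 1.49 over ends listed for both. These moves follow from the forms that each alternative adds or drops. The last 2 alternatives were chosen after seeing the data. Of 58 values of single members and lesser ratios under alternatives, 39 stayed within their interval and 19 moved. No paired analysis was possible because the table holds 1 library and replicate numbers differ between groups. For the same reason, leaving out replicates was not run. Depth limits the 3p arms of miR-181b, miR-181c and miR-181d, with 1, 0, 8 and 0 reads.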
